A study of Mus musculus with 6 samples.

Results

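The 41 genes described here encode proteins of DNA repair and of the signalling that responds to DNA damage, and they were followed in the transcriptome of GC-2spd cells exposed to fine particulate matter (PM2.5). They were given as a list of symbols and matched to the Ensembl gene identifiers of the deposited files by GENCODE M21 names. All 41 were found among the 54886 genes listed. By function, 12 belong to base excision repair, 10 to nucleotide excision repair, 2 to mismatch repair, 4 to damage signalling, 6 to homologous recombination and the handling of break ends, 4 to non-homologous end joining, and 3 to crosslink repair, direct reversal and lesion bypass. GC-2spd is a cell line derived from mouse spermatocytes, on the BALB/c strain background in the sample labels. The control group was untreated, in normal culture medium by the labels and with phosphate-buffered saline added by the methods. The exposed group received a certified reference particulate suspended in that saline, at 100 μg/mL for 48 h. Each group has 3 RNA-seq libraries, all from 1 cell line, and the labels do not say whether they came from separate cultures. The methods describe quantitative data in general as coming from 3 experiments, without naming the libraries, so p-values measure the spread between these libraries, which may be technical.

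DNA is damaged in several ways, and a different set of proteins deals with each. In base excision repair a glycosylase removes a single altered base, for instance an oxidised guanine, and an endonuclease, a polymerase and a ligase restore the strand. In nucleotide excision repair a stretch of strand around a bulky adduct is cut out, which is the main route for adducts of polycyclic aromatic hydrocarbons. Mismatch repair corrects replication errors, double-strand breaks are joined directly or repaired from the sister chromatid, and the kinases ATM and ATR report breaks and stalled forks to the cell cycle. Male germ cells make and repair breaks during meiosis, and several of these proteins are needed there.

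Messenger RNA levels are given as FPKM, which relates the fragments counted on a gene to its length and to library size, as deposited. The reads recovered from the FPKM steps came to between 16209352 and 18003201 per library. Control replicate 2 stood apart from the other 5 libraries: mitochondrial transcripts took 14.5% of its reads, against 1.65% to 1.95% elsewhere. The library size implied by the worth of 1 read was 12971300 for control replicate 2, below its 16209352 recovered reads. For the other 5 libraries it was 17742100 to 18558900, above the recovered reads of each. The FPKM of control replicate 2 are thus higher, relative to the others, than its recovered reads would give. Counts and ratios of this library below are on FPKM as deposited. Each comparison is therefore given with all 6 libraries and without control replicate 2. None of 10 spermatocyte markers was above 1 FPKM in every library, and 5 of them (Dazl, Mael, Piwil1, Pgk2 and Spo11) were at 0 in all 6. Of the markers of neighbouring testis cells, 1 of 5 for Sertoli cells (Gata4), 1 of 5 for Leydig cells (Star) and 1 of 4 for peritubular cells (Acta2) were above 1 FPKM throughout. The spermatocyte identity of the line was therefore not visible in these markers.

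The aryl hydrocarbon receptor, which binds polycyclic aromatic hydrocarbons carried on such particles, recognises DNA through a core of 5 bases, GCGTG, read as CACGC on the other strand. The 250 bases before the first listed RefSeq start (build GRCm38.p6) were searched for it on both strands, and the starts of 33 of the 41 repair genes were in the table used. At least 1 core was found for 19 of the 33 (57.6%), against 48.0% of 8460 tested genes with a promoter and 28.2% of all 27025 promoters. The following stretches are shown because they hold no annotated exon and span the range of matches: Mgmt holds 3, the most of the 33, Ercc5 holds 1 and Xpa none. They lie at chr7:136894336-136894585 on the plus strand, chr1:44147494-44147743 on the plus strand and chr4:46196312-46196561 on the minus strand. Each is written 5′ to 3′ along its gene's strand, with the cores in capitals.
Mgmt: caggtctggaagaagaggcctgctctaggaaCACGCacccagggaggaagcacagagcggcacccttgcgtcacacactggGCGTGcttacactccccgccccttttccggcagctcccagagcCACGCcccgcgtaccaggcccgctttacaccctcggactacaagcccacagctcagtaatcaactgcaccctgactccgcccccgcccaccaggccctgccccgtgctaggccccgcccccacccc
Ercc5: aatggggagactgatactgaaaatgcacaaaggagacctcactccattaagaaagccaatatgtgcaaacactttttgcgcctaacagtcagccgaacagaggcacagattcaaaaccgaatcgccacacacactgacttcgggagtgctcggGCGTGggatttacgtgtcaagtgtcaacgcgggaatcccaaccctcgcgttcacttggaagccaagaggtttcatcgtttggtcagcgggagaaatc
Xpa: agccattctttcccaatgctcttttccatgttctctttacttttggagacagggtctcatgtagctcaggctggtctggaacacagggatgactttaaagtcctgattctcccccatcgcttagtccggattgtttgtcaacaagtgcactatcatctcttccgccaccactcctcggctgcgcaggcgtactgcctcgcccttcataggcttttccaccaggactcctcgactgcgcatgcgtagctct
A match is a description of the letters and not a binding site, and binding was not measured here.

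The repair genes covered a wide range of levels, from a median over the 6 libraries of 0.309 FPKM for Mgmt to 222 FPKM for Ddb1. Ddb1, a subunit of the DNA damage sensor of nucleotide excision repair and of a ubiquitin ligase, ranked 128 among the 11884 genes tested. Msh6, a sensor of mismatches, and Parp1, which marks strand breaks with poly(ADP-ribose), came next among the repair genes, at ranks 1331 and 1466. Control replicates 1 and 3 were close for all 40 genes tested, with a ratio of at most 1.22 (Ercc1), and the ratio was 1.65 for Mgmt. In contrast, control replicate 2 was above all other libraries for 17 of the 40 repair genes tested and below all of them for 19. Over all genes tested these shares were 39.3% and 43.6%, so the displacement of this library was common to the transcriptome. The exposed libraries were not uniform either. PM2.5 replicate 3 was above both other exposed libraries for 22 of the 40 genes and below both for 15, against 46.8% and 43.1% of all genes.

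**Figure D1:**
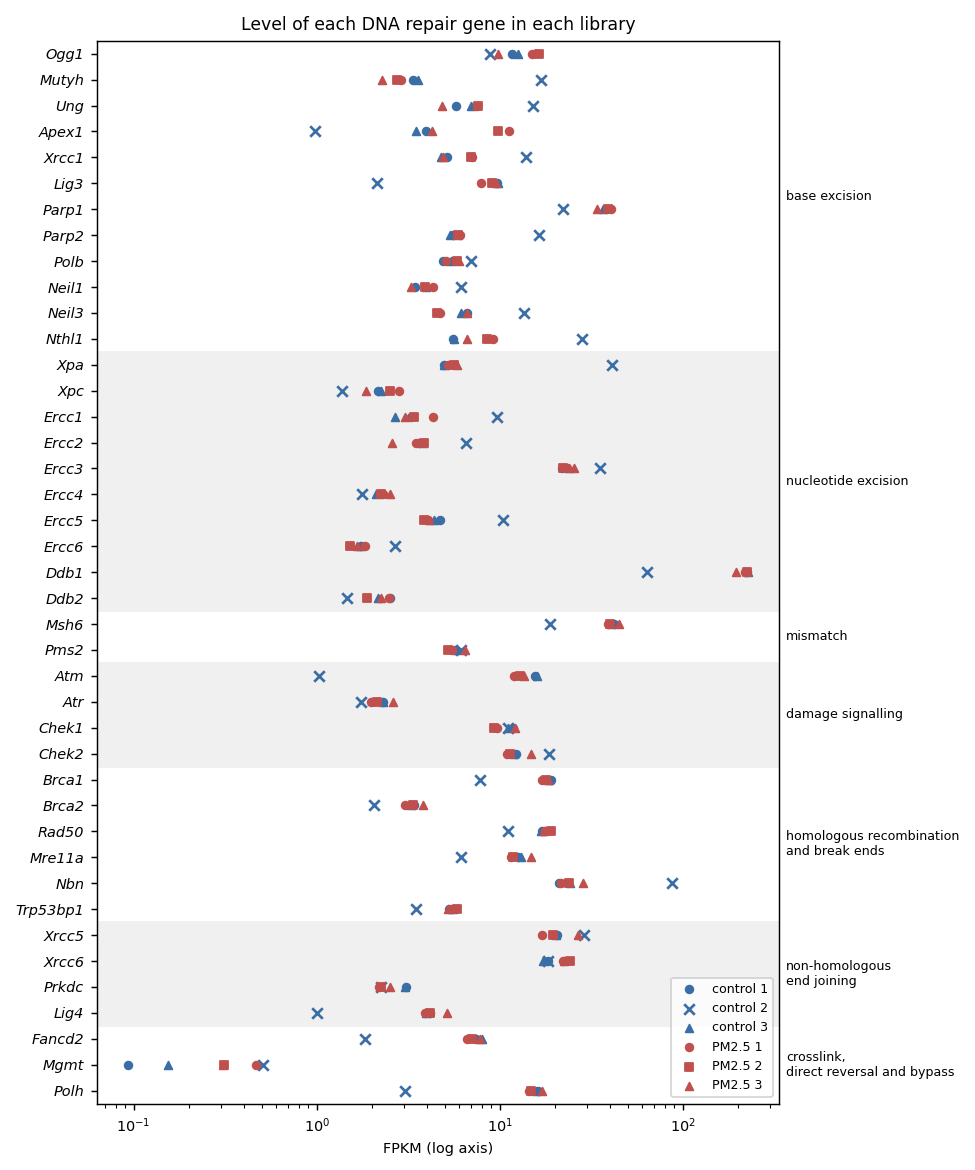
FPKM (log axis) of the 41 DNA repair genes in the 6 libraries, grouped by pathway; blue, control; red, PM2.5; the crosses are control replicate 2. The crosses lie outside the other 5 points for 36 of the 40 genes tested, while the other controls and the exposed libraries lie close together, except for Mgmt, Apex1 and a few others.

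No repair gene passed the test for differential expression after PM2.5 exposure. With limma on log2(FPKM + 1) over 11884 genes, the thresholds (adjusted p-value by Benjamini-Hochberg under 0.05, and log2 fold change above 1 in either direction) were passed by 0 of the 40 repair genes tested, and by 0.0926% of all genes (11). At an unadjusted p-value under 0.05, 1 repair gene was higher (Apex1) and 0 were lower, against 1.92% and 1.88% of all genes. Mgmt did not pass the minimum mean of 1 FPKM and was not tested. The median log2 fold change of the 40 genes was 0.02, the same to that digit as the 0.02 of all genes tested, and 20 of them were higher and 20 lower. Without control replicate 2 the count was again 0, while 0.707% of all genes (84) passed, or 0.993% (118) with no fold threshold. Then 2 repair genes were higher at an unadjusted p-value under 0.05 (Nthl1 and Xrcc6) and 3 were lower (Atm, Mutyh and Prkdc). Of all genes, 8.23% were higher and 7.63% lower at that threshold. The lowest adjusted p-value of any repair gene was 0.875 with 6 libraries and 0.191 without control replicate 2.

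The size of change that the data allow can be read from the 95% intervals. With all 6 libraries the interval of the log2 fold change lay between -1 and 1 for 19 of the 40 repair genes, and for 47.7% of all genes. Its half-width had a median of 0.71 and reached 2.05 for Atm. Without control replicate 2, 39 of the 40 intervals lay between -1 and 1, against 86.2% of all genes, the exception being Apex1. The median half-width was then 0.29. The sign of the fold change differed between both fits for 22 of the 40 genes. A fold change on the log2(FPKM + 1) scale understates the change of low genes, such as Ercc6 and Xpc.

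**Figure D2:**
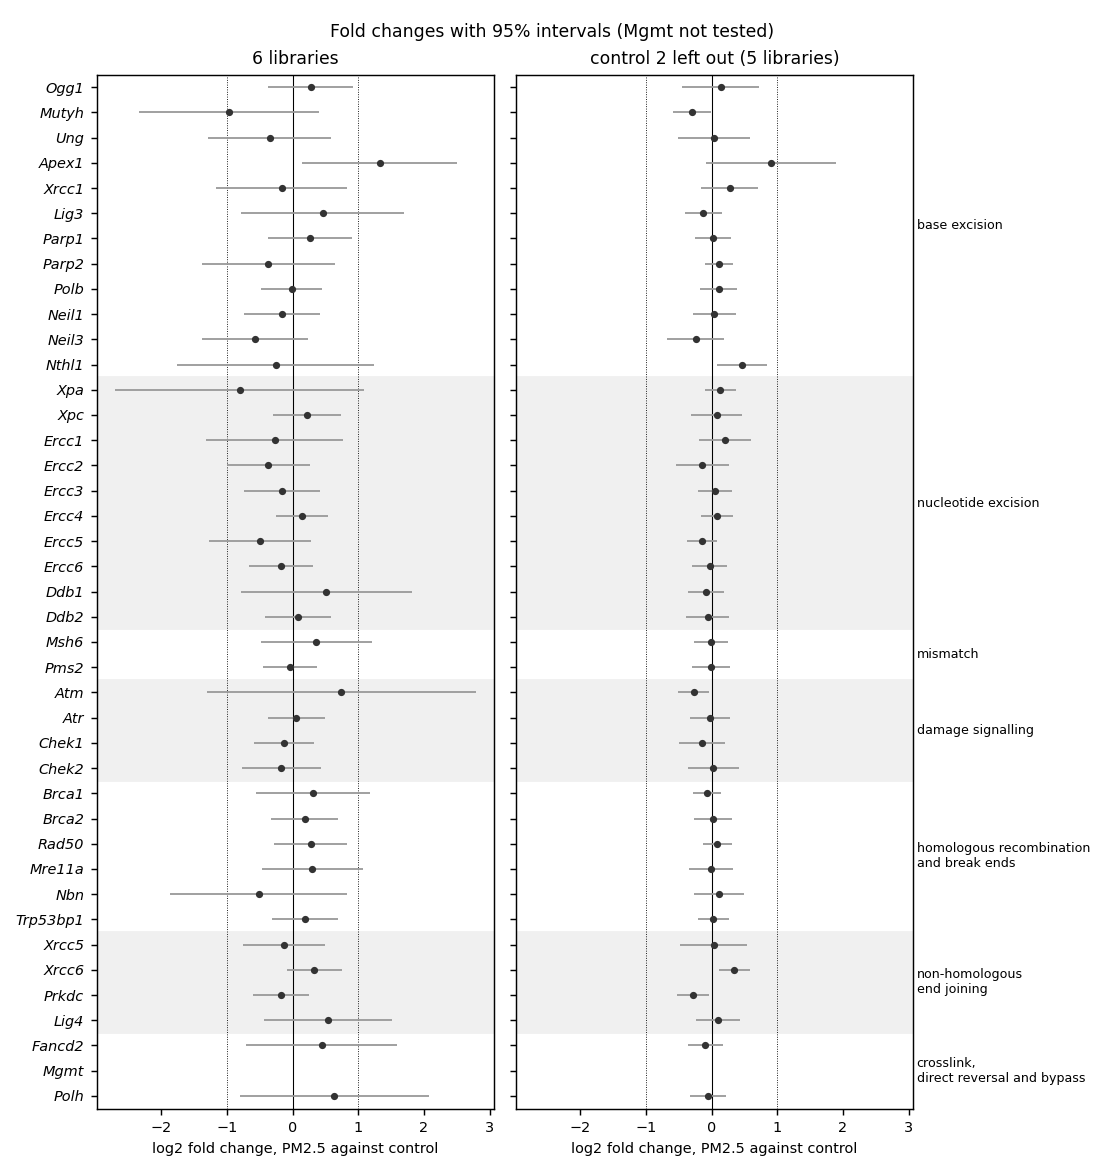
Log2 fold change of each repair gene, PM2.5 against control, on the log2(FPKM + 1) scale, with its 95% interval (horizontal bar), with all 6 libraries on the left and without control replicate 2 on the right; dotted lines mark a log2 fold change of 1 in either direction. On the right 39 of 40 intervals lie between the dotted lines, and on the left 19 do.

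Groups that did not overlap were also counted. With 6 libraries, all exposed libraries were above all controls for 4 repair genes (Apex1, Ercc4, Rad50 and Xrcc6), where 8.35% of all genes did so, and below for 2 (Ercc5 and Mutyh), where 6.85% did so. Without control replicate 2 the exposed libraries were above for 7 of the 40 and below for 6, against 17.7% and 19.6% of all genes. The 4 higher genes and both lower genes are in both counts, as they must be, because leaving out a control cannot make separate groups overlap. The differences were small for Ercc4, Rad50 and Ercc5, whose log2 fold changes without control replicate 2 were 0.08 (SE 0.10), 0.09 (SE 0.09) and -0.15 (SE 0.09).

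In base excision repair, the glycosylases recognise the altered base. Ogg1, which removes 8-oxoguanine, was at 11.7, 8.85 and 12.6 FPKM in the controls and at 15.1, 16.4 and 9.74 FPKM in the exposed libraries. The groups overlapped, and PM2.5 replicate 3 was below the controls other than replicate 2. Mutyh removes the adenine that pairs wrongly with 8-oxoguanine. It was at 3.36, 16.9 and 3.57 FPKM in the controls and at 2.87, 2.74 and 2.29 FPKM in the exposed libraries, all 3 of which were below all controls. Its log2 fold change was -0.97 (SE 0.56, adjusted p = 0.875) with 6 libraries and -0.30 (SE 0.11, unadjusted p = 0.0428, adjusted p = 0.303) without control replicate 2, which alone was 4.86 times the mean of the other controls. Nthl1, the glycosylase for oxidised pyrimidines, was at 5.54, 28.2 and 5.60 FPKM in the controls and at 9.17, 8.51 and 6.61 FPKM after exposure. The exposed libraries were thus above controls 1 and 3 but far below control 2. The log2 fold change was -0.26 (SE 0.61, adjusted p = 0.908) with 6 libraries and 0.46 (SE 0.15, unadjusted p = 0.0274, adjusted p = 0.256) without control replicate 2. Ung, Neil1 and Neil3, which remove uracil and oxidised bases, had log2 fold changes between -0.24 and 0.04 without control replicate 2, with groups that overlapped.

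Apex1 encodes the main endonuclease that cuts the strand where a base has been removed, and it was the repair gene with the largest fold change. Its level was 3.98, 0.976 and 3.47 FPKM in the controls and 11.3, 9.75 and 4.28 FPKM in the exposed libraries (2.81 ± 1.61 against 8.43 ± 3.67 FPKM, SD, n = 3 each). All exposed libraries were above all controls, but PM2.5 replicate 3 was only slightly above control replicate 1. The log2 fold change was 1.33 (SE 0.48, unadjusted p = 0.0328, adjusted p = 0.875) with 6 libraries and 0.91 (SE 0.39, unadjusted p = 0.0649, adjusted p = 0.350) without control replicate 2. It is found at chr14:50924968-50927139, plus strand (GENCODE M21, GRCm38), and its recovered reads numbered 105, 18 and 89 in the controls and 286, 246 and 110 after exposure. Exons of Pip4p1 on the opposite strand cover 61.7% of its exon length, and the library kit is not stated to keep the strand, so reads of this stretch cannot be told apart between both genes. Pip4p1 was at 8.72, 5.08 and 8.76 FPKM in the controls and at 11.1, 10.3 and 8.81 FPKM after exposure. As for Apex1, control 2 was the lowest control, and PM2.5 replicate 1 was the highest and replicate 3 the lowest exposed library. The part of the overlap in the value of Apex1 was not tested.

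Of the later steps of base excision repair, none stood out. Parp1 was at 37.9, 22.2 and 36.5 FPKM in the controls and at 40.6, 39.0 and 34.2 FPKM after exposure, with a log2 fold change of 0.02 (SE 0.11) without control replicate 2. Parp2, its smaller relative, was at 5.58, 16.4 and 5.37 FPKM against 6.03, 5.95 and 5.95 FPKM. The exposed values lay just above controls 1 and 3. Xrcc1, the scaffold of single-strand break repair, was at 5.16, 13.9 and 4.78 FPKM in the controls and at 7.04, 6.94 and 4.90 FPKM in the exposed libraries, and the groups overlapped. Its partner Lig3, a DNA ligase, was at 9.73, 2.14 and 9.77 FPKM against 7.89, 9.06 and 9.60 FPKM. Polb, the gap-filling polymerase, had a log2 fold change of 0.11 (SE 0.11) without control replicate 2. Of 12 further base excision genes 11 were tested, and 0 were called in either fit.

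**Figure D3:**
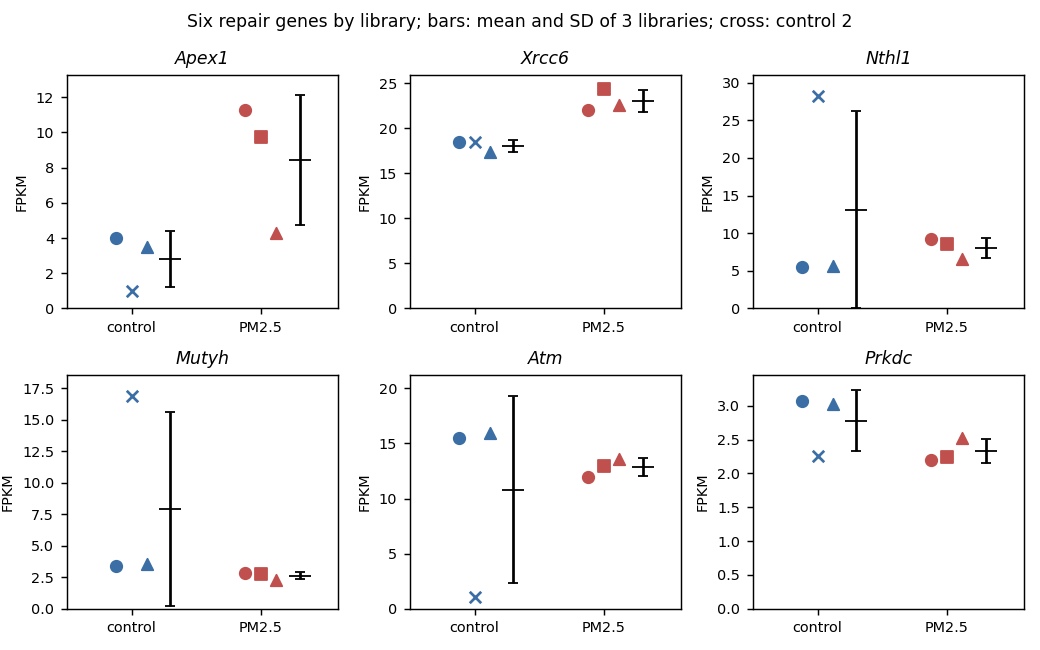
FPKM of Apex1, Xrcc6, Nthl1, Mutyh, Atm and Prkdc in each library (points; crosses, control replicate 2), with the mean and SD of the 3 libraries of each group beside them; these are the genes at an unadjusted p-value under 0.05 with 6 or with 5 libraries. For Xrcc6 all exposed libraries lie above all controls with little spread. For Apex1, Nthl1, Mutyh, Atm and Prkdc the control SD is mostly set by control replicate 2.

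In nucleotide excision repair, 0 of the 10 genes passed an unadjusted p-value of 0.05 in either fit. Xpa, which checks the damaged strand and holds the repair complex in place, had the largest fold change with 6 libraries. It was at 4.98, 41.03 and 4.98 FPKM in the controls and at 5.20, 5.59 and 5.87 FPKM in the exposed libraries. Control replicate 2 was 8.24 times the mean of the other controls, and the log2 fold change of -0.81 (SE 0.78, adjusted p = 0.875) became 0.13 (SE 0.09, adjusted p = 0.536) without it. The damage sensors Xpc, Ddb1 and Ddb2 had log2 fold changes of 0.07, -0.09 and -0.06 without control replicate 2. Ddb1 was at 225, 63.9 and 228 FPKM in the controls and at 220, 225 and 195 FPKM after exposure, so that control replicate 2 was the only library far from the rest. The helicase genes Ercc2 and Ercc3 had log2 fold changes of -0.14 (SE 0.16) and 0.04 (SE 0.10) in the fit without that library. Ercc1 and Ercc4 encode the nuclease that cuts on one side of the lesion and Ercc5 the nuclease that cuts on the other side. Ercc5 was at 4.70, 10.4 and 4.38 FPKM in the controls and at 4.05, 3.88 and 4.09 FPKM in the exposed libraries, all of which were below all controls. Its log2 fold change was -0.49 (SE 0.32, adjusted p = 0.875) with 6 libraries. Ercc6, which starts repair at stalled RNA polymerase, stayed between 1.52 and 2.68 FPKM in all libraries.

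Of 14 further nucleotide excision genes, all 14 were tested and 0 were called. Gtf2h1, a subunit of the TFIIH complex that opens the strand, is named after its values were seen, as the further gene with the lowest adjusted p-value. It was at 14.2, 18.2 and 15.3 FPKM in the controls and at 21.4, 21.2 and 22.7 FPKM in the exposed libraries. All exposed libraries were above all controls, and the log2 fold change was 0.44 (SE 0.19, adjusted p = 0.875) with 6 libraries and 0.53 (SE 0.09, adjusted p = 0.0869) without control replicate 2.

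In mismatch repair, Msh6 was at 42.1, 18.7 and 40.8 FPKM in the controls and at 39.1, 40.1 and 44.7 FPKM in the exposed libraries. The exposed values surrounded those of controls 1 and 3. The log2 fold change was 0.36 (SE 0.35, adjusted p = 0.875) with 6 libraries and -0.01 (SE 0.10, adjusted p = 0.975) without control replicate 2. Pms2, the endonuclease partner in strand removal, was 1 of the 4 tested repair genes for which control replicate 2 lay within the range of the other libraries in FPKM. It was at 5.68, 6.13 and 5.85 FPKM in the controls and at 5.52, 5.21 and 6.45 FPKM after exposure, with a log2 fold change of -0.04 (95% interval -0.45 to 0.37) with 6 libraries. In recovered reads control replicate 2 was the lowest library for Pms2, at 645 against 750 to 946 elsewhere.

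Of the damage-signalling kinases, Atm was the gene most displaced in control replicate 2. This kinase, which responds to double-strand breaks, was at 15.5, 1.03 and 15.9 FPKM in the controls and at 11.9, 13.0 and 13.6 FPKM in the exposed libraries. The mean of controls 1 and 3 was 15.3 times the value of control 2, and the exposed libraries lay between. The log2 fold change was 0.74 (SE 0.84, adjusted p = 0.875) with 6 libraries and -0.27 (SE 0.09, unadjusted p = 0.0323, adjusted p = 0.271) without control replicate 2, so the direction turned with this library. Atr, the kinase for stalled forks, was at 2.29, 1.74 and 2.31 FPKM against 1.98, 2.14 and 2.62 FPKM, with a log2 fold change of -0.03 (SE 0.12) without control replicate 2. Chek1, which ATR activates, was at 11.8, 11.1 and 11.1 FPKM in the controls and at 9.72, 9.25 and 12.1 FPKM after exposure. Chek2, which ATM activates, was at 12.2, 18.5 and 11.96 FPKM against 11.0, 11.3 and 14.9 FPKM. For both, PM2.5 replicate 3 was above the other exposed libraries and above controls 1 and 3.

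In homologous recombination and the handling of break ends, Rad50, Mre11a and Nbn encode the complex that binds broken ends. Rad50 and Mre11a were below their other libraries in control replicate 2, whereas Nbn was above. Nbn was at 21.04, 87.0 and 24.1 FPKM in the controls and at 21.6, 23.8 and 28.6 FPKM in the exposed libraries, and its log2 fold change was -0.52 (SE 0.55, adjusted p = 0.875) with 6 libraries and 0.12 (SE 0.15, adjusted p = 0.731) without control replicate 2. Rad50 was at 17.0, 11.1 and 16.9 FPKM against 17.6, 19.1 and 17.5 FPKM. Brca1, which promotes the resection of ends, was at 19.0, 7.81 and 18.5 FPKM in the controls and at 17.0, 17.9 and 18.3 FPKM after exposure, and Brca2, which loads the recombinase, ranged from 2.06 to 3.82 FPKM over all libraries. Trp53bp1, which restrains resection, was at 5.28, 3.51 and 5.53 FPKM against 5.48, 5.84 and 5.20 FPKM. Without control replicate 2 the log2 fold changes of the 6 genes lay between -0.07 and 0.12. None of the 10 further genes of this group was called or reached an unadjusted p-value of 0.05 in either limma fit.

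In non-homologous end joining, Xrcc6 and Xrcc5 encode the Ku70 and Ku80 proteins that hold broken ends together. Xrcc6 was at 18.4, 18.4 and 17.3 FPKM in the controls and at 22.1, 24.4 and 22.6 FPKM in the exposed libraries (18.1 ± 0.657 against 23.0 ± 1.21 FPKM, SD, n = 3 each). All exposed libraries were above all controls, and in FPKM control replicate 2 was as low as the others. Its recovered reads in the controls were 1532, 1070 and 1396, fewest in control replicate 2. The log2 fold change was 0.33 (SE 0.17, unadjusted p = 0.102, adjusted p = 0.875) with 6 libraries and 0.35 (SE 0.09, unadjusted p = 0.0132, adjusted p = 0.191) without control replicate 2, the lowest adjusted p-value among the repair genes. Exons of Desi1 on the opposite strand cover 7.69% of the exon length of Xrcc6. Desi1 was at 21.3, 25.5 and 20.3 FPKM in the controls and at 25.1, 23.1 and 23.7 FPKM after exposure. The log2 fold change of Desi1 was 0.10 (SE 0.19) with 6 libraries and 0.19 (SE 0.09, adjusted p = 0.372) without control replicate 2. The part of the overlap in the value of Xrcc6 was not tested. Its partner Xrcc5 was at 20.6, 28.9 and 20.2 FPKM in the controls and at 17.1, 19.6 and 26.8 FPKM after exposure, with overlapping groups and a log2 fold change of 0.03 (SE 0.20) without control replicate 2. Prkdc, the kinase that Ku recruits, was at 3.07, 2.26 and 3.02 FPKM in the controls and at 2.20, 2.25 and 2.53 FPKM in the exposed libraries. It was below controls 1 and 3 in all exposed libraries, but in FPKM control replicate 2 was as low as these. Its recovered reads were 751, 386 and 719 in the controls and 519, 526 and 603 after exposure, fewest in control replicate 2. The log2 fold change was -0.18 (SE 0.18, adjusted p = 0.875) with 6 libraries and -0.28 (SE 0.10, unadjusted p = 0.0314, adjusted p = 0.268) without control replicate 2. Lig4, the ligase that seals the break, was at 4.14, 1.008 and 3.97 FPKM against 3.93, 4.17 and 5.17 FPKM, with a log2 fold change of 0.54 (SE 0.40, adjusted p = 0.875) with 6 libraries and 0.09 (SE 0.13, adjusted p = 0.7498) without control replicate 2.

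The remaining genes deal with crosslinks, alkylated guanine and lesions met by the replication fork. Fancd2, which is activated at crosslinks, was at 7.43, 1.83 and 8.02 FPKM in the controls and at 6.62, 7.03 and 7.81 FPKM after exposure. Polh, the polymerase that copies past ultraviolet damage, was at 16.2, 3.04 and 15.9 FPKM in the controls and at 14.4, 14.9 and 17.1 FPKM in the exposed libraries. Its log2 fold change was 0.64 (SE 0.59, adjusted p = 0.875) with 6 libraries and -0.05 (SE 0.11, adjusted p = 0.834) without control replicate 2. Mgmt, which takes alkyl groups off guanine and whose promoter is printed above, was scarcely expressed. It had 5, 19 and 8 reads in the controls and 24, 16 and 16 reads in the exposed libraries, or 0.0931, 0.506 and 0.153 FPKM against 0.464, 0.312 and 0.306 FPKM. The exposed libraries were above controls 1 and 3 but not above control 2, and no test was made. Of 19 further genes of this group 0 were called. With 6 libraries 8 of them were higher and 11 lower, with a median log2 fold change of -0.03, against 0.02 for all genes tested. In the limma fit without control replicate 2, 5 were higher and 14 lower, with a median of -0.17, against -0.01. At an unadjusted p-value under 0.05, 0 were higher and 4 lower, against 8.23% and 7.63% of all genes. Fancf, a subunit of the Fanconi core complex named after its values were seen, was at 4.68, 5.47 and 5.48 FPKM in the controls and at 3.48, 2.93 and 3.89 FPKM after exposure, with all exposed libraries below all controls. Its log2 fold change was -0.49 (SE 0.18, unadjusted p = 0.0310, adjusted p = 0.875) with 6 libraries and -0.46 (SE 0.13, unadjusted p = 0.0185, adjusted p = 0.222) without control replicate 2.

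Over the 74 further repair genes of all pathways, 73 were tested and 0 were called in either limma fit. With 6 libraries 0 of them were higher and 1 lower at an unadjusted p-value under 0.05, against 1.92% and 1.88% of all genes. Without control replicate 2 there were 4 higher and 4 lower, against 8.23% and 7.63% of all genes. All 4 lower genes belong to crosslink repair, direct reversal and bypass. They were Fancf, described above, and Polk, Rev3l and Rad18, named after their values were seen. The log2 fold changes of Polk, Rev3l and Rad18 were -0.38, -0.46 and -0.40 without control replicate 2. With 6 libraries they were -0.07 (SE 0.30), 0.04 (SE 0.44) and 0.10 (SE 0.45). Several repair genes follow the cell cycle, so 14 genes of proliferation were set beside them. Their median log2 fold change was 0.13 with 6 libraries (9 higher, 5 lower) and -0.19 without control replicate 2 (3 higher, 11 lower), and 0 were called. The part of proliferation in the values of the repair genes was not tested.

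The displacement of control replicate 2 differed between the repair genes, and it varied with exon length. On the log2(FPKM + 1) scale, the ratio of control 2 to the mean of controls 1 and 3 had a median of 0.53 over the 20 repair genes with shorter exon length and of -0.47 over the 20 with longer. Control 2 was the higher for 13 of the shorter and 6 of the longer genes. Spearman's rho with exon length was -0.47 across the 40 genes and -0.30 across 11740 tested genes with a length, where genes of 1 library are not independent. Xpa, with 1894 bases of exon, was at the top and Atm, with 10338 bases, at the bottom. Apex1, the shortest at 1422 bases, was below 0, unlike most of the shorter genes. The high mitochondrial share and the length pattern mark the same library, and their part in the values of the repair genes was not tested.

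**Figure D4:**
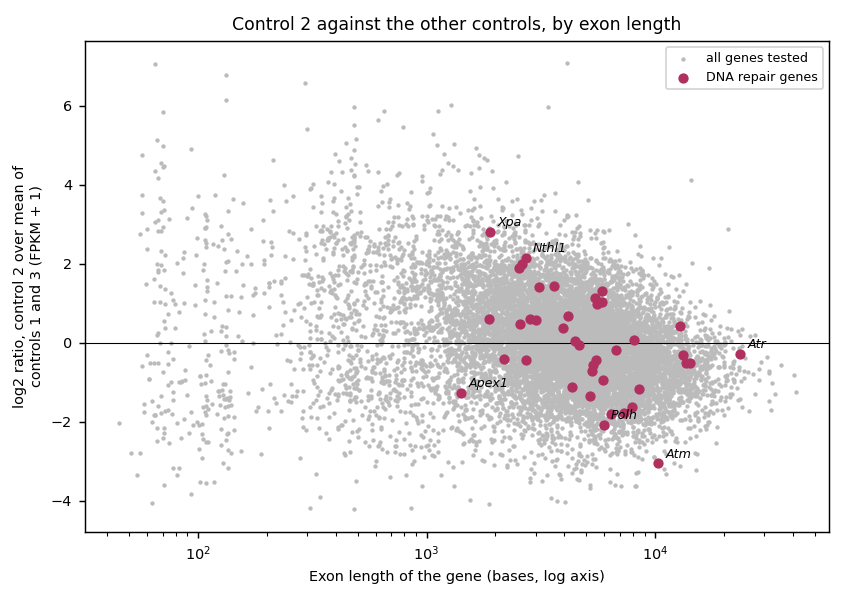
Log2 ratio of control replicate 2 to the mean of control replicates 1 and 3, on FPKM + 1, against the exon length of the gene (bases, log axis), for all tested genes with a length (grey) and for the 40 DNA repair genes tested (red). Among the red points Xpa lies at the top and Atm at the bottom, while Apex1, the shortest, lies below 0. Spearman's rho was -0.47 for the red points and -0.30 for all tested genes with a length.

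Some of the repair genes lie close to other genes in the genome. Another protein-coding gene on the opposite strand starts within 1000 bases of the start of 16 of the 41 (39.0%), against 17.7% of the 10374 protein-coding genes tested. Such pairs include Atm with Npat, Prkdc with Mcm4, Nthl1 with Tsc2 and Mutyh with Toe1. Npat was at 17.9, 9.72 and 17.8 FPKM in the controls and at 11.7, 13.1 and 16.0 FPKM in the exposed libraries. Its log2 fold change was -0.38 (SE 0.14, unadjusted p = 0.0457, adjusted p = 0.306) without control replicate 2, beside the -0.27 of Atm. Toe1 and Tsc2 had log2 fold changes of -0.07 and -0.09 in that fit, beside the -0.30 of Mutyh and the 0.46 of Nthl1, and Mcm4 had -0.23 (SE 0.17), beside the -0.28 of Prkdc. Exons of other genes covered over 10% of the exon length on either strand for 6 of the 41. These were Ogg1, Apex1, Lig3, Ercc2, Ddb2 and Trp53bp1, and their levels are uncertain for that reason.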

How the data were processed

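RNA-seq libraries of 3 control and 3 PM2.5-exposed samples were grouped by their titles and treatment labels. Per the labels and the methods, the authors prepared them with the NEBNext Ultra kit, sequenced 150-base read pairs, mapped them with HISAT2 2.0.5, counted genes with featureCounts 1.5.0-p3 and deposited FPKM (fragments scaled to gene length and library size). The submitters' processing notes name the build mm9, but the identifiers match GENCODE M21 on GRCm38, from which lengths and positions were taken here. A length was found for 54495 of 54886 genes. Dividing FPKM times length by the worth of 1 read gave whole reads (within 0.05) for 98.1% to 98.4% of values under 50 reads, and for 38 of the 41 repair genes, all but Nthl1, Ddb1 and Msh6. These reads served for depth and alternatives only.

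The 41 genes and the other lists were chosen with earlier results of these data known. Genes with a mean of at least 1 FPKM were tested with limma 3.58.1 (trend and robust, R 4.3.3, statmod 1.5.0) on log2(FPKM + 1), with Benjamini-Hochberg adjustment over all 11884. Full statistics are given for repair genes called in either fit or at an unadjusted p under 0.05 with 6 libraries, and otherwise for the gene with the largest fold change of a pathway. Mutyh, Nthl1, Xrcc6, Prkdc, Fancf, Gtf2h1, Ercc5, Polk, Rev3l and Rad18 were added after their values were seen. So were the neighbours Pip4p1, Desi1, Npat, Mcm4, Toe1 and Tsc2. Alternatives were other filters, another pseudocount, scaling to total reads, voom, a replicate block, no fold threshold and each library left out. The fit was tested on simulated data with the same spread in all 6 libraries. No simulated library was displaced like control replicate 2, so that test does not show how the fit behaves here. Promoters came from RefSeq, and figures from matplotlib 3.10.9.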

Additional observations from a re-analysis of the deposited data

How the results depend on the processing

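No repair gene was called under any alternative tried, with or without control replicate 2. Over the alternatives with 6 libraries and those leaving out 1 library, with no other change, the adjusted p-values of Apex1, Xpa, Msh6, Atm, Nbn, Lig4 and Polh lay between 0.271 and 0.988. Control replicate 2 decided the direction of several. Without it the log2 fold changes of Xpa (0.132), Msh6 (-0.00847), Atm (-0.275), Nbn (0.118) and Polh (-0.0529) were reversed, while Apex1 and Lig4 kept theirs. The opposite ends, with another library left out, were -1.28 for Xpa, 0.556 for Msh6, 1.26 for Atm, -0.881 for Nbn and 0.992 for Polh. Apex1 ranged from 0.91 to 1.70 over the same alternatives, and its unadjusted p was 0.103 and 0.0937 without PM2.5 replicate 1 and 2.

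The number of genes called went from 11 to 0 with no filter, with a minimum mean of 5 FPKM and with voom on recovered reads, to 9 with a pseudocount of 0.1 and to 6 when scaled to recovered total reads. That scaling moved the median of all genes from 0.02 to 0.13 and that of the repair genes to 0.12. Leaving out 1 library gave between 0 and 84 genes called, between 0 and 5 repair genes at an unadjusted p under 0.05 and a repair-gene median between -0.02 and 0.05, with both upper counts from leaving out control replicate 2, where 1885 of all 11884 genes were at that unadjusted p, against 197 to 627 with any other library left out. Where limma called 0 genes, between 197 and 875 were at an unadjusted p under 0.05. Alternatives without this library, chosen after seeing the data, called 111 genes with voom, 91 with a pseudocount of 0.1, 85 scaled to recovered total reads and 118 with no fold threshold. They left 4, 5 and 4 repair genes at an unadjusted p under 0.05 with voom, the pseudocount and the scaling, with Mutyh no longer among them under voom and the scaling. Of all genes, 1888 of 11740, 1890 of 11884 and 1910 of 11884 were at that threshold. The cause was not tested.

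With the replicate number as a block, 0 genes were called with 6 libraries (335 at an unadjusted p under 0.05) and 92 without control replicate 2 (832 at that unadjusted p), and 1 repair gene was at an unadjusted p under 0.05 in both, Apex1. Same-numbered libraries deviated with correlations of -0.28, 0.18 and 0.25, so the numbers were not taken to pair the samples. The fewest recovered reads of a tested repair gene with whole reads were 18 (Apex1 in control replicate 2). Depth thus limits the untested Mgmt most and, among tested genes, the value of Apex1 in that library.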
